A study of Homo sapiens with 34 samples.

Results

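The 10 genes described here encode cathepsins, proteases that work mainly inside the lysosome: CTSA, CTSB, CTSC, CTSD, CTSH, CTSK, CTSL, CTSS, CTSW and CTSZ. They were chosen by name from the 20255 genes of the expression table, because CTSS stood among the largest differences between the blood and non-blood fractions on day 16 and because the family holds enzymes known from myeloid cells beside enzymes known from connective tissue. The day 16 difference between the fractions is therefore given below as a description with no test. All 10 genes were among the 19788 genes that could be tested.

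The cells came from H1, a human embryonic stem cell line, and RNA of whole populations was sequenced. H1 cells before differentiation gave 1 library with no treatment. Embryoid bodies on day 0 (BMP4 and hVEGF) and unsorted cultures on days 2 and 4 (hVEGF) gave 3 libraries each. Per the study's methods, attachment in BMP4, hVEGF and Thiazovivin began on day 0. The medium was changed on day 2 to one with hVEGF as the only growth factor. Day 2 cells had thus been in BMP4 since day 0. From day 6 the cultures, still in hVEGF with no added blood cytokine, were sorted by CD43, the earliest surface mark of human blood cells: CD43- and CD43+ cells on days 6, 9 and 12, and CD43-CD45- and CD43+/CD45+ cells on day 16, again with 3 libraries each. The day 16 fractions are called CD43- and CD43+ below. Each fraction is a mixture of cells from 1 line, so that fewer cells of a type and less RNA per cell cannot be told apart.

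Cathepsins are made as inactive precursors, carried to the lysosome on mannose 6-phosphate receptors and cut to the active form in acid surroundings. CTSB, CTSC, CTSH, CTSK, CTSL, CTSS, CTSW and CTSZ are cysteine proteases of the papain family, CTSD is an aspartic protease and CTSA is a serine carboxypeptidase. Macrophages and granulocytes are rich in several of them: CTSS trims the invariant chain so that MHC class II molecules can bind peptides, and CTSC activates the serine proteases of granules. CTSK is the collagen-cutting enzyme of osteoclasts and fibroblasts, and cystatins hold the cysteine cathepsins in check outside the lysosome.

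The coding stretch around the catalytic cysteine is printed for the members that the results turn on, to show how far apart the transcripts are that had to be counted separately. CTSV, a close relative of CTSL that is no member of the list, is added because it behaved differently from CTSL. Sequences are from GENCODE v29 (GRCh38), 5′ to 3′ on the coding strand, with the codon of the catalytic cysteine in capitals and 30 bases on each side.
CTSS: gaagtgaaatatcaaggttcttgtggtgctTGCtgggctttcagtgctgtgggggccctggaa
CTSW: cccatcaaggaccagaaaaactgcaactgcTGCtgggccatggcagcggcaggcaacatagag
CTSC: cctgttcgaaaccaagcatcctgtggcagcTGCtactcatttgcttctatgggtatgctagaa
CTSK: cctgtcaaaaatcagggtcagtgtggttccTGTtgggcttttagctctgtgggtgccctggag
CTSL: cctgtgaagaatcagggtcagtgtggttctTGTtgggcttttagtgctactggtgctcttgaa
CTSV: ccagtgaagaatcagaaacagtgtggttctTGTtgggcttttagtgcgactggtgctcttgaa

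The CTSS stretch lies at chr1:150751961-150755015 and that of CTSK at chr1:150804192-150805875, both on the minus strand of the same chromosome. CTSL lies at chr9:87728382-87728632 on the plus strand and CTSV at chr9:97036700-97037266 on the minus strand. CTSW lies at chr11:65882315-65882477 on the plus strand and CTSC at chr11:88296218-88300545 on the minus strand. All 6 stretches are coding and cross a junction between exons, so that the coordinates also span an intron. CTSL and CTSV had the same base at 58 of the 63 positions, CTSK and CTSL at 52, CTSK and CTSS at 46, and CTSS and CTSW at 26. Over the aligned coding sequence CTSL and CTSV were identical at 83.5% of 999 bases, with a longest shared run of 40 bases, whereas CTSK and CTSS were identical at 62.9% of 976 bases with a longest run of 17. A read that lies wholly within a shared run could belong to CTSL or CTSV. Read length was not examined, so whether this touched the estimates of these genes is not known.

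Values are the authors' GC-normalized tag counts, which carry the same set of numbers in every library (sum 17856940, median 197, highest 90700), so that a library's sequencing depth is unknown and a value ranks a gene within its library. They are not scaled by gene length, and levels are therefore compared between samples and never between genes. SPN, the gene of CD43, had values of 2338 to 9460 in the 12 CD43+ libraries and of 18 to 328 in the 12 CD43- libraries. PTPRC, the gene of CD45, was at 8 or below in all day 6 libraries, at 634 to 749 in CD43+ cells on day 9 and at 6920 to 15868 there on days 12 and 16. Markers of blood and of connective tissue went with the sort on day 12 (called at adjusted p under 0.05 and more than 4-fold). All 12 monocyte and macrophage, 9 neutrophil, 7 mast cell and eosinophil and 6 megakaryocyte markers were called higher in CD43+ cells. So were 6 of 7 erythroid markers, against 11.8% of all genes. All 9 markers of mesenchymal stroma and 4 of 6 endothelial markers were called lower, against 14.4% of all genes. The day 12 libraries differed among themselves. The summed value of the 12 monocyte and macrophage markers was 108514, 36404 and 28954 in CD43+ replicates 1, 2 and 3 and 435, 6385 and 8347 in CD43- replicates 1, 2 and 3, against 1573 to 2178 in CD43- cells on day 16. Replicates 2 and 3 of the day 12 CD43- cells thus had higher myeloid markers than replicate 1, in a fraction sorted to lack CD43.

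**Figure D1:**
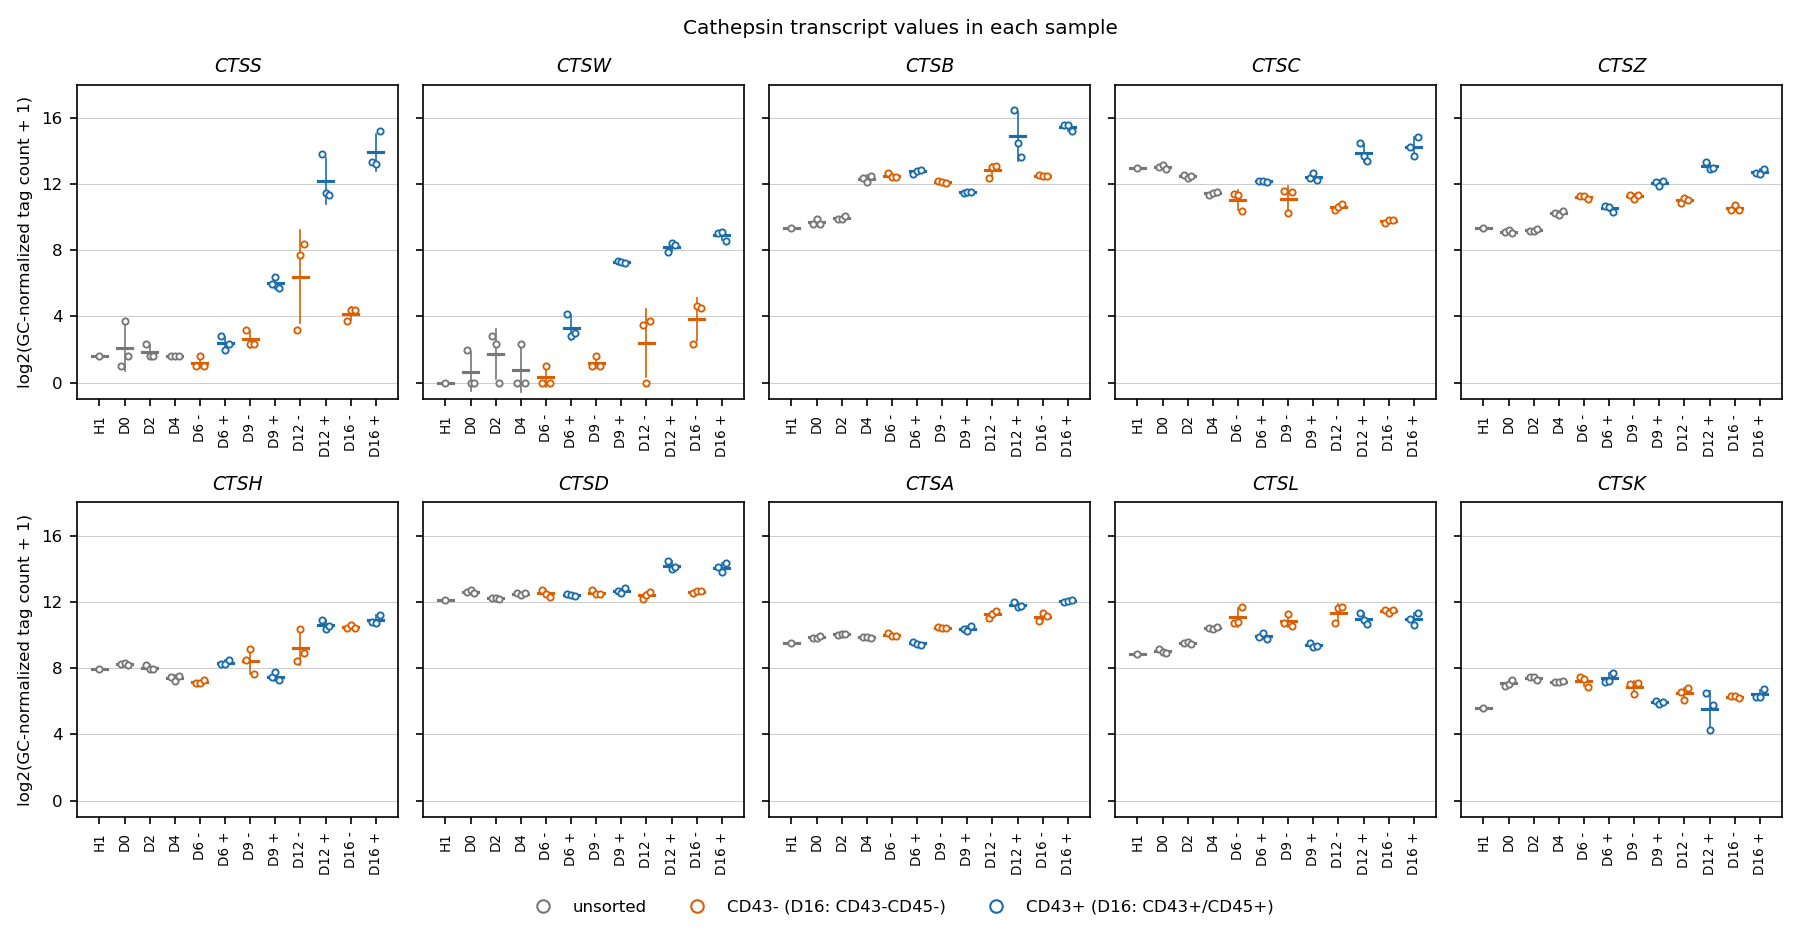
Values of the 10 cathepsin genes in each of the 34 libraries, on the scale log2(GC-normalized tag count + 1), with the day on the x axis (H1, undifferentiated cells; minus, CD43-; plus, CD43+). Open circles are libraries, horizontal bars means and vertical bars SD of 3 libraries (H1 has 1). CTSS in CD43+ cells runs from 3 to 6 on day 6 to between 9501 and 37190 on day 16, while CTSK stays between 18 and 211 in all sorted libraries.

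The first question is which cathepsins separated the CD43+ from the CD43- fraction, and from when. CTSW was the only member called higher in CD43+ cells on day 6. CTSS joined it on day 9, and CTSB, CTSC, CTSS, CTSW and CTSZ were called higher on day 12. No member was called lower in CD43+ cells on any of the 3 days. A gene was called at an adjusted p under 0.05 (limma, Benjamini-Hochberg over all 19788 genes) and a change of more than 4-fold on the scale log2(value + 1), with 3 libraries a group. Of all genes tested, 4.69% were called higher and 7.85% lower on day 6, 8.65% and 12.8% on day 9, and 11.8% and 14.4% on day 12. For days 6, 9 and 12 in turn, the members had median log2 differences of 0.20, 0.03 and 1.91, against 0.14, 0.24 and 0.22 over all genes. With median-of-ratios scaling the all-gene medians became 0, 0.04 and 0.12. Differences of the size of that shift are given below as values only. On that scaling CTSB (log2 difference of 1.94) and CTSZ (1.96) on day 12 came to lie just short of 4-fold, which left 3 members called. The values of the most abundant genes are held to the same few numbers in all libraries, so that differences near the top of the table are compressed.

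On day 16, the contrast that chose CTSS, the same 5 members had a difference of more than 4-fold: the log2 difference was 9.74 for CTSS, 5.06 for CTSW, 4.47 for CTSC, 2.94 for CTSB and 2.20 for CTSZ. Of all genes, 12.3% lay more than 4-fold higher and 13.6% more than 4-fold lower. CTSD (1.44), CTSA (0.96) and CTSH (0.42) were also above 0, with no overlap between the fractions. CTSK (0.16) had overlapping libraries, and the CTSL libraries (-0.49) met at 2542. No member lay more than 4-fold towards the CD43- fraction, so the members are not called myeloid and stromal here.

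**Figure D2:**
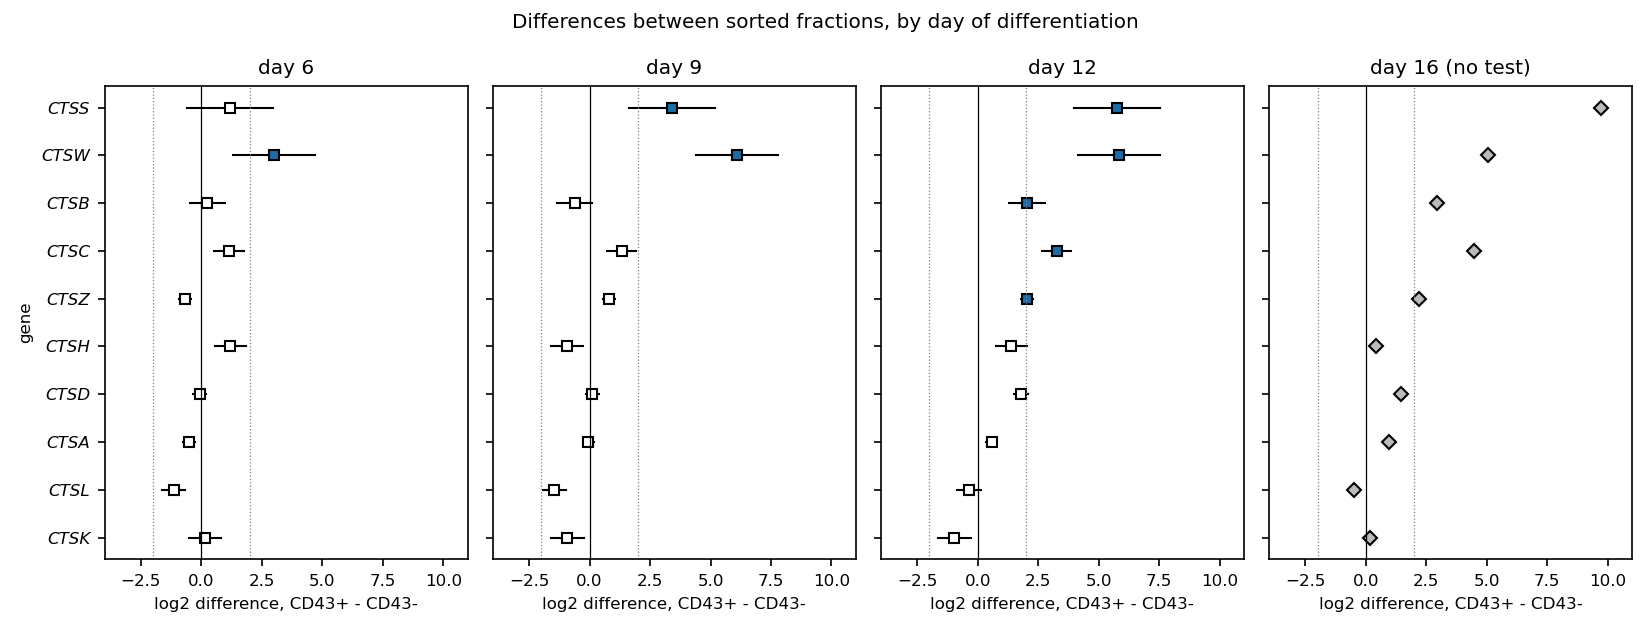
Difference between CD43+ and CD43- cells for each member on days 6, 9, 12 and 16, as the log2 difference of the means of log2(value + 1) on the x axis. Squares with 95% confidence intervals are from the fit (filled, called), grey diamonds on day 16 are differences without a test, and dotted lines mark 4-fold. The filled squares are CTSW on day 6, CTSS and CTSW on day 9, and CTSS, CTSW, CTSB, CTSC and CTSZ on day 12.

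CTSS, which prepares MHC class II molecules in macrophages and other antigen-presenting cells, was close to undetected up to day 6. Its value was 2 in undifferentiated cells, 1, 12 and 2 on day 0, 4, 2 and 2 on day 2, and 2 in each day 4 library. On day 6 it was 1, 2 and 1 in CD43- cells and 6, 3 and 4 in CD43+ cells. These values are too low to order the populations, and the day 6 difference did not pass the test (log2 difference of 1.18 ± 0.86 SE, adjusted p = 0.265). On day 9 CTSS was 62, 82 and 51 in CD43+ cells and 8, 4 and 4 in CD43- cells, a log2 difference of 3.41 ± 0.86 (adjusted p = 0.00111). The libraries did not overlap. On day 12 it reached 14020, 2747 and 2542 in CD43+ cells against 8, 204 and 330 in CD43- cells, a log2 difference of 5.76 ± 0.86 (adjusted p = 1.4e-06). The day 12 call was lost when the day 12 populations were fitted alone with same-numbered libraries taken as pairs, and whether they are pairs is unknown. On day 16 the values were 10085, 9501 and 37190 against 12, 20 and 20. Replicate 1 on day 12 and replicate 3 on day 16 stood above the other CD43+ libraries of their day.

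Within the CD43+ fraction CTSS rose by 3.64 on the log2 scale from day 6 to day 9 (SE 0.86, adjusted p = 0.00184) and by a further 6.15 from day 9 to day 12 (SE 0.86, adjusted p = 1.05e-06). In order of the means, the CD43+ cells of days 16 and 12 stood highest and overlapped each other, followed by CD43- cells on day 12, which overlapped CD43+ cells on day 9, and by CD43- cells on day 16. The 6 populations below these overlapped neighbour by neighbour. In the CD43- fraction CTSS was called higher on day 12 than on day 9 (log2 difference of 3.80, adjusted p = 0.00116), although replicate 1 at 8 lay within the day 9 range of 4 to 8. With replicate 1 as the only day 12 CD43- library, an alternative chosen after seeing the data, that difference was 0.57 (adjusted p = 0.703) and the day 12 difference between the fractions 9.0 (adjusted p = 2.67e-09).

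The CTSS values went with the summed macrophage markers on day 12. On day 6 CTSS was too low for its order to be set against these sums. The day 6 sums were 3493, 2178 and 590 in CD43- cells and 1277, 859 and 1064 in CD43+ cells. MRC1 alone was at 503 to 3426 in these CD43- cells and at 497 to 560 in the CD43+ cells. Of the 12 markers, 2 were called higher in CD43+ cells on day 6 and 0 lower, against 4.69% and 7.85% of all genes. These were CSF1R (258 to 658 against 6 to 18) and VSIG4 (6 to 24 against 0 in each library). On day 9 the sums were 3244 to 3775 in CD43+ and 702 to 2078 in CD43- cells, with MRC1 alone at 103 to 256 and 557 to 1986. In the CD43+ fraction on day 12 replicate 1 was highest both for CTSS and for the summed markers, and in the CD43- fraction on day 12 replicates 2 and 3 were the higher ones on both measures. The 3 macrophage markers with the largest day 12 difference were not alike in this. MS4A7 was 4, 149 and 172 in CD43- and 3538, 1206 and 937 in CD43+ cells, and FCGR3A, an Fc receptor, 0, 86 and 141 against 3299, 2074 and 1232, as CTSS was ordered. MARCO, a scavenger receptor, was listed at 0 in each CD43- library and was 65, 147 and 148 in CD43+ cells, lowest in replicate 1. The part of these markers in the CTSS result was not tested. The summed neutrophil markers were 454, 1539 and 8131 in CD43- cells on day 12 and 205975, 165508 and 230063 in CD43+ cells on day 16, both in the order of the CTSS values. In CD43+ cells on day 12 the sums were 200385, 200160 and 227465, with MPO at 90700 and S100A8 at 15794 in each of the 3.

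**Figure D3:**
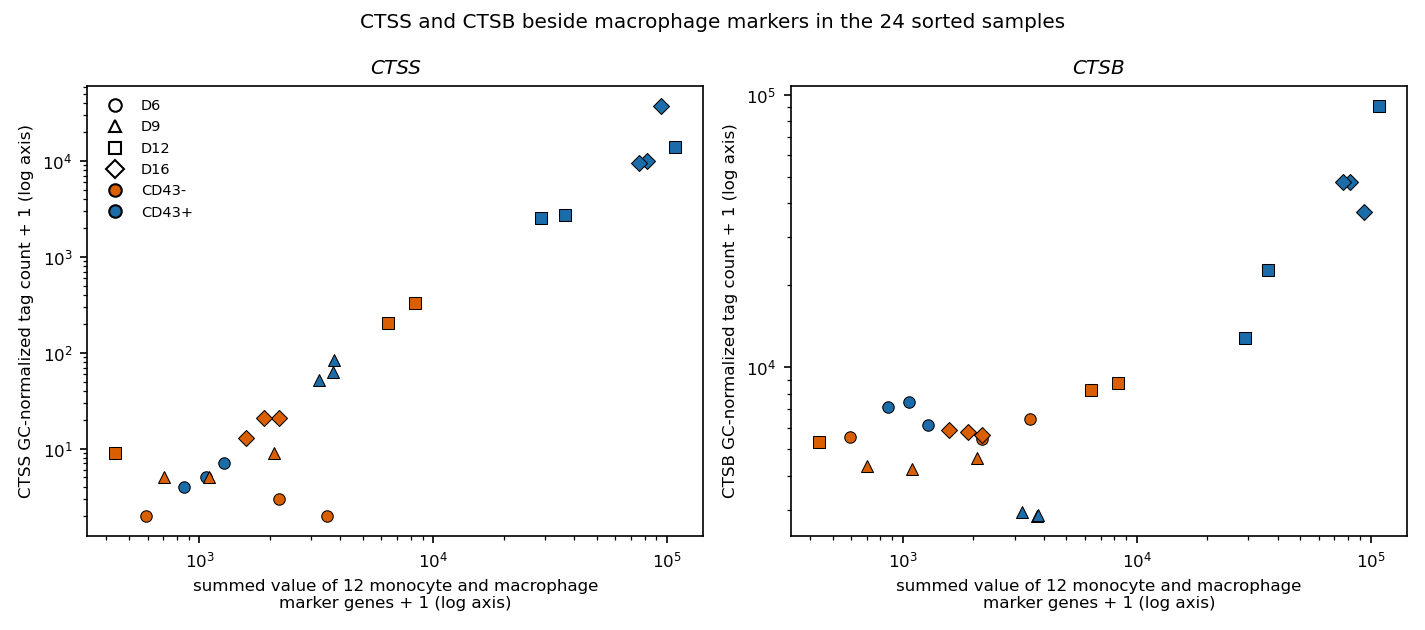
CTSS (left) and CTSB (right) values against the summed value of 12 monocyte and macrophage marker genes in the 24 sorted libraries, both axes logarithmic with 1 added. Symbols give the day and colours the fraction. The libraries with the highest marker sums, CD43+ on days 12 and 16, also hold the highest CTSS and CTSB values, and CD43- replicates 2 and 3 of day 12 lie between them and the other CD43- libraries.

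CTSW, a cathepsin best known from natural killer and cytotoxic T cells, was the first member to differ by more than 4-fold between the fractions. It was listed at 0 in undifferentiated cells and at 0 to 6 in the unsorted cultures. On day 6 its values were 17, 6 and 7 in CD43+ cells and 0, 1 and 0 in CD43- cells (log2 difference of 2.99 ± 0.82, adjusted p = 0.00357). CTSW in day 6 CD43+ cells was also called higher than on day 4, when it was 0, 4 and 0 (log2 difference of 2.55 ± 0.82, adjusted p = 0.011). Both folds rest on very low values: with 10 in place of 1 added to each value they were 0.91 and 0.80, short of 4-fold. The second call was also lost without day 4 replicate 1 or 3 (2.16 each) and without CD43+ replicate 1 (2.13), with adjusted p from 0.0557 to 0.0594.

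On day 9 CTSW was 163, 153 and 150 in CD43+ cells against 1, 2 and 1 in CD43- cells, a log2 difference of 6.09 ± 0.82 (adjusted p = 3.45e-07). It rose by 3.96 from day 6 to day 9 in the CD43+ fraction (adjusted p = 0.000494), a call that was lost with 0.1 in place of 1 added (4.10, adjusted p = 0.0654). On day 12 the values were 238, 345 and 316 against 10, 0 and 12 (log2 difference of 5.83 ± 0.82, adjusted p = 5.55e-07), and on day 16 they were 528, 536 and 378 against 4, 24 and 22. The CD43+ cells of days 9, 12 and 16 did not overlap each other, with means of 155 ± 6.8, 299.7 ± 55.3 and 481 ± 89.0 (SD, n = 3). The populations below them were CD43- cells on day 16 and CD43+ cells on day 6, which overlapped, followed by populations with means under 8 that overlapped neighbour by neighbour. Unlike CTSS, CTSW was not highest in the CD43+ library with the most macrophage marker RNA: on day 12 replicate 1 had the lowest value of the 3.

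Of the 7 tested markers of NK and T cells, 3, 5 and 3 were called higher in the CD43+ cells of days 6, 9 and 12, and 1, NCAM1, was called lower each time. Of all genes, 4.69%, 8.65% and 11.8% were called higher on these days and 7.85%, 12.8% and 14.4% lower. On day 12 NCAM1 was at 12 to 19 against 1072 to 1252. NKG7, a protein of cytotoxic granules, went from 6 to 41 against 0 to 1 on day 6, through 290 to 336 against 0 to 2 on day 9, to 2974 to 4147 against 2 to 202 on day 12. NCR1, a receptor of natural killer cells, was at 38 to 43 against 0 to 1 on day 6, 36 to 60 against 0 to 1 on day 9 and 15 to 26 against 0 to 2 on day 12. GNLY, a granule toxin, was at 6 to 22 against 0 to 2 on day 9 and 6 to 12 against 0 to 2 on day 12. CD3D, a part of the T cell receptor complex, had values of 1 to 36, 106 to 174 and 0 to 2 in the CD43+ cells of days 6, 9 and 12 and was at 0 in the CD43- cells of these days. PRF1, the pore-forming perforin, was at 12 to 18 against 0 to 1 on day 9, where it was called higher, and at 0 to 4 against 0 to 3 on day 12. The summed value of the list in CD43+ against CD43- cells was 344 to 360 against 806 to 1554 on day 6, 682 to 718 against 753 to 1107 on day 9 and 3181 to 4326 against 1333 to 1488 on day 12. In CD43- cells NCAM1 alone was at 771 to 1514 on day 6 and 723 to 1082 on day 9. In CD43+ cells of day 12 NKG7 alone was at 2974 to 4147. The sums are thus largely those of single genes, and the part of the list in the CTSW result was not tested.

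CTSB, a broad lysosomal cysteine protease with both endopeptidase and carboxypeptidase activity, differed from CTSS and CTSW in that it rose before the cultures were sorted. Its value was 636 in undifferentiated cells, 760 to 934 on day 0 and 946 to 1058 on day 2, and then 5173, 4406 and 5760 on day 4. The rise from day 2 to day 4 was the only call among the members in the unsorted cultures (log2 difference of 2.37 ± 0.35, adjusted p = 5.51e-06). On day 6 CTSB was 6121, 7132 and 7456 in CD43+ cells and 6442, 5458 and 5534 in CD43- cells, and the 2 fractions overlapped. On day 9 CD43+ cells had 2852, 2870 and 2940 and CD43- cells 4640, 4354 and 4220. The fractions did not overlap on day 9, and the log2 difference of -0.61 ± 0.35 did not pass the test (adjusted p = 0.132). On day 12 the order was turned round, with 90700, 22758 and 12784 in CD43+ cells against 5292, 8240 and 8780 in CD43- cells (log2 difference of 2.04 ± 0.35, adjusted p = 1.25e-05).

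Within CD43+ cells CTSB rose by 3.37 on the log2 scale from day 9 to day 12 (SE 0.35, adjusted p = 9.92e-09). The change of the difference between the fractions from day 9 to day 12 was itself called (2.64 ± 0.50, adjusted p = 0.000237). CD43+ replicate 1 of day 12 was at the highest value of the whole table, and without it the day 12 difference was 1.23 and the change of the difference 1.84, both short of 4-fold with an adjusted p of 2.73e-06 and 6.03e-06. Without CD43- replicate 1 the day 12 difference was 1.81, also short of 4-fold, and with the day 12 populations fitted alone its adjusted p was 0.0552. On day 16, CTSB was 47984, 47984 and 37130 in CD43+ cells and 5870, 5614 and 5760 in CD43- cells, so that the high value was seen in all 3 libraries of the later day. As with CTSS, the day 12 order of the CD43+ libraries was that of the macrophage marker sums.

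CTSC, also called dipeptidyl peptidase I, takes dipeptides off the granule serine proteases and so activates them. It fell before the cultures were sorted: 8281, 8977 and 7637 on day 0, 6012, 5254 and 5644 on day 2, and 2588, 2794 and 2920 on day 4 (day 4 against day 2, log2 difference of -1.03 ± 0.30, adjusted p = 0.00737, short of 4-fold), after 8088 in undifferentiated cells. From day 6 the fractions did not overlap on any day. CD43+ cells had 4662, 4615 and 4511 on day 6 and 5318, 6472 and 4904 on day 9, against 2736, 2535 and 1293 and 3048, 1189 and 2960 in CD43- cells. These differences of 1.14 ± 0.30 and 1.32 ± 0.30 passed the adjusted p (0.00206 and 0.000306) without reaching 4-fold. On day 12 the values were 22847, 13327 and 10844 against 1396, 1548 and 1746, a called log2 difference of 3.26 ± 0.30 (adjusted p = 1.99e-10). On day 16 they were 18776, 13327 and 29030 against 803, 919 and 896, the lowest CTSC values of any population being those of the CD43- cells on that day.

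The granule proteases that CTSC activates were high in the same fraction. Of the list of 6 genes, 4 were tested, and on day 12 all 4 were called higher in CD43+ cells, against 11.8% of all genes. Their median log2 difference was 9.74 against 0.22 over all genes. ELANE, the neutrophil elastase, was 1856 to 3605 in CD43+ and 1 to 11 in CD43- cells. PRTN3, proteinase 3, was 29015 to 37178 against 0 to 1172, and AZU1, azurocidin, which has lost its protease activity, was 15842 to 22812 against 63 to 495. CTSG, which is a serine protease in spite of its cathepsin name, was 2185, 2900 and 3877 against 0, 0 and 18. On day 9, when CTSC was short of 4-fold, 3 of the 4 were already called higher, against 8.65% of all genes. On day 6, CTSG alone was called (40, 26 and 14 against 4, 1 and 0), and 4.69% of all genes were called higher. GZMA, a granule protease of lymphocytes, was too low to be tested, at 4 to 20 in CD43+ cells on day 12 and at 0 in CD43- cells. The list overlaps the neutrophil markers, which hold ELANE, AZU1 and PRTN3 as well.

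CTSZ, a carboxypeptidase also known as cathepsin X, rose before the cultures were sorted and then parted the fractions in turn both ways. It was 558, 560 and 629 on day 2 and 1221, 1130 and 1322 on day 4 (log2 difference of 1.07 ± 0.12, adjusted p = 6.91e-08, short of 4-fold). On day 6 it was lower in CD43+ cells, at 1629, 1547 and 1282 against 2430, 2450 and 2194 (log2 difference of -0.67 ± 0.12, adjusted p = 4.49e-05). By day 9 it was higher there, at 4428, 3684 and 4608 against 2564, 2157 and 2599 (0.80 ± 0.12, adjusted p = 2.18e-06). The turn itself, a change of the difference of 1.47 ± 0.17, passed the adjusted p (1.15e-06) and fell short of 4-fold. On day 12 CTSZ was 10080, 7773 and 7907 against 1849, 2246 and 2084, a difference of 2.05 ± 0.12 (adjusted p = 3.73e-14) that sat just past 4-fold. Without CD43- replicate 1 it was 1.98 and without CD43+ replicate 1 it was 1.93, both below 4-fold. On day 16 the values were 6584, 6068 and 7630 against 1354, 1662 and 1391.

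CTSH, an aminopeptidase of the lysosome, had its higher mean in CD43+ cells on day 6, in CD43- cells on day 9 and again in CD43+ cells on day 12. On day 6 it was 304, 300 and 360 in CD43+ cells and 134, 134 and 151 in CD43- cells (log2 difference of 1.19 ± 0.32, adjusted p = 0.00266). On day 9 it was 174, 215 and 152 against 356, 568 and 196, so that CD43- cells had the higher mean with overlapping libraries (-0.93 ± 0.32, adjusted p = 0.0118). On day 12 it was 1915, 1322 and 1467 against 338, 1304 and 470 (1.39 ± 0.32, adjusted p = 0.00037). None of these 3 differences was more than 4-fold, but both changes between days were called: -2.12 ± 0.45 from day 6 to day 9 (adjusted p = 0.00129) and 2.32 ± 0.45 from day 9 to day 12 (adjusted p = 0.000301). In CD43+ cells CTSH rose by 3.11 from day 9 to day 12 (SE 0.32, adjusted p = 5.9e-09). CD43- replicate 2 stood above the other CD43- libraries on day 9 (568) and on day 12 (1304), and without day 9 replicate 2 the 2 changes were -1.76 and 1.95, both short of 4-fold. Without day 12 CD43- replicate 1 the second change was 1.91. On day 16, both fractions were high, at 1756, 1696 and 2378 in CD43+ and 1384, 1572 and 1355 in CD43- cells.

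CTSD, the aspartic protease of the lysosome, parted the fractions on day 12. It lay between 4602 and 7152 in all unsorted day 0 to day 4 libraries and all sorted libraries of days 6 and 9, and the fractions overlapped on both days. The differences were -0.07 ± 0.14 on day 6 and 0.11 ± 0.14 on day 9 (adjusted p = 0.69 and 0.476), and the second became -0.10 with median-of-ratios scaling. On day 12 CTSD was 22812, 15842 and 17338 in CD43+ cells and 4539, 5550 and 6064 in CD43- cells. This difference of 1.79 ± 0.14 had an adjusted p of 5.9e-12 and fell short of 4-fold. CD43+ cells had 1.52 more on the log2 scale on day 12 than on day 9 (SE 0.14, adjusted p = 5.86e-10). On day 16, they were at 17338, 13998 and 20394 against 6000, 6357 and 6460.

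CTSA, which trims peptides and also holds lysosomal β-galactosidase and neuraminidase in a complex, had smaller differences. CD43+ cells were at 774, 710 and 666 on day 6, below CD43- cells at 1110, 974 and 980 (log2 difference of -0.51 ± 0.11, adjusted p = 0.000451). On day 9 the fractions overlapped, at 1180 to 1476 and 1338 to 1421. On day 12 CD43+ cells were higher, at 4114, 3346 and 3456 against 2056, 2451 and 2792 (0.59 ± 0.11, adjusted p = 4.76e-05). Both fractions increased with time: from day 9 to day 12 by 1.45 in CD43+ cells (adjusted p = 4.5e-11) and by 0.82 in CD43- cells (adjusted p = 4.15e-06), each short of 4-fold. CTSA overlaps NEURL2 over 1144 bases and PLTP over 200 bases on the other strand, and CTSD overlaps a longer annotated gene, AC068580.4, over 11203 bases on its own strand. Whether counting used strand is not given in the sources used here, so part of these values could belong to the overlapping genes.

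Other lysosomal genes, on lists written with earlier results of these data known are given here as counts. None of 19 lysosomal enzyme and membrane protein genes was called in either direction on day 12, when 11.8% of all genes were called higher and 14.4% lower. Of the 19, 15 passed the adjusted p, in either direction, and stayed short of 4-fold. The log2 difference was above 0 for 15 of the 19. Their median log2 difference was 0.83, against 0.22 over all genes. The 4 largest differences were those of ACP5, tartrate-resistant acid phosphatase (556 to 1302 against 70 to 440, log2 difference of 1.93), MAN2B1, the lysosomal α-mannosidase (5376 to 7132 against 1535 to 1982, 1.80), SCARB2, the receptor that carries glucocerebrosidase (994 to 2284 against 4110 to 5190, -1.76), and TPP1, a tripeptidyl peptidase (5914 to 8684 against 2028 to 2900, 1.46). On day 9, 1 of the 19 was called lower and none higher, against 12.8% and 8.65% of all genes. A further 9 passed the adjusted p on day 9 and stayed short of 4-fold.

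Of 9 genes for the delivery and processing of lysosomal enzymes, 1 was called higher on day 12, a share near the 11.8% of all genes: NAGPA, which uncovers the mannose 6-phosphate tag, at 500 to 528 against 79 to 136 (log2 difference of 2.27 ± 0.17, adjusted p = 2.84e-12). M6PR, the small mannose 6-phosphate receptor, was at 5123 to 5894 against 1505 to 1948 (1.61), whereas IGF2R, the large one, was at 2500 to 4154 against 4783 to 6700 (-0.89). LMAN1, a cargo receptor of the early secretory path, was at 2564 to 3822 against 6071 to 8975 (-1.23). All 3 passed the adjusted p and stayed short of 4-fold, in opposite directions for the 2 receptors.

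Among the 4 regulators of lysosomal genes, TFEC, a relative of TFEB found mainly in myeloid cells, was called higher on day 12 (1514 to 2210 against 1 to 38, log2 difference of 7.14 ± 0.76, adjusted p = 4.71e-09). TFEB, the main activator of lysosomal genes, was at 210 to 346 against 45 to 108 (1.82, adjusted p = 4.21e-05, short of 4-fold). TFE3 (-0.24, adjusted p = 0.0153) and MITF (-0.26, adjusted p = 0.674) had overlapping libraries. These factors bind the sequence CACGTG. RefSeq promoter windows (GRCh38.p14) were matched by symbol for 6 of the 10 members, CTSA, CTSC, CTSD, CTSH, CTSL and CTSZ, and the 250 bases before the start were searched on both strands. The starts are those of RefSeq. For CTSA, CTSD, CTSH and CTSL the searched bases lie inside the gene spans given below, which begin at other positions. CACGTG occurred in CTSA, at 42 and 25 bases before the start, and in CTSD, at 47 bases, and in 6.34% of all 35116 promoters. GAGGAA, the core of sites for the myeloid factor PU.1, occurred in CTSA, CTSH and CTSL and in 23.6% of all promoters. A match is a description of these letters and not a site shown to be used.

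CTSL, a lysosomal endopeptidase present in most cells, had higher values in the CD43- fraction on days 6 and 9. On day 6 it was 945, 1089 and 868 in CD43+ cells and 1668, 1752 and 3324 in CD43- cells (log2 difference of -1.15 ± 0.24, adjusted p = 0.000226). On day 9 it was 735, 610 and 648 against 1682, 2441 and 1467 (-1.46 ± 0.24, adjusted p = 5.8e-06). Neither difference reached 4-fold, and in neither did the libraries overlap. On day 12 they overlapped, at 2600, 1896 and 1649 against 1693, 3190 and 3226 (-0.37 ± 0.24, adjusted p = 0.172), and with replicate 1 as the only CD43- library the value was 0.25. CTSL in CD43+ cells was higher on day 12 than on day 9 by 1.60 ± 0.24 (adjusted p = 2.37e-06, short of 4-fold). On day 16, it was 1966, 1530 and 2542 against 2881, 2542 and 2881.

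CTSV, the relative whose coding stretch is printed beside that of CTSL, took another course. It started from 1585, 1330 and 1375 on day 0, with 2756, 2913 and 3134 on day 2 and a peak of 8497, 7154 and 9233 on day 4, and then had 758, 1237 and 1916 in CD43- and 1064, 1536 and 2551 in CD43+ cells on day 6. On day 12 CD43+ cells were at 74, 40 and 54 and CD43- cells at 846, 553 and 405 (log2 difference of -3.38 ± 0.29, adjusted p = 6.16e-11). CTSV was the only 1 of the 5 other cathepsins tested that was called lower in CD43+ cells on day 12, against 14.4% of all genes. On day 9, at 200, 196 and 186 against 453, 518 and 456, the difference was -1.29 ± 0.29 (adjusted p = 0.000322, short of 4-fold).

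CTSK, the collagenase of osteoclasts, was never called. It lay between 116 and 211 in all libraries from day 0 to day 6. On day 9 it was 64, 56 and 62 in CD43+ cells and 128, 86 and 138 in CD43- cells (log2 difference of -0.91 ± 0.33, adjusted p = 0.017), and on day 12 it was 88, 18 and 54 against 92, 67 and 108, with overlap (-0.96 ± 0.33, adjusted p = 0.0117). Neither reached 4-fold. On day 6 the difference was 0.15 ± 0.33 (adjusted p = 0.732) and it became -0.01 with median-of-ratios scaling. On day 16, CTSK was 75, 76 and 106 against 78, 78 and 71. Of the 5 osteoclast markers in the table, 2 were called higher in CD43+ cells on day 12 and none lower, against 11.8% and 14.4% of all genes. The summed value of the 5 was 2558 to 6361 in CD43+ and 1406 to 4012 in CD43- cells. OSCAR, an immune receptor also found on other myeloid cells, was at 818 to 1183 against 2 to 41, and DCSTAMP, a fusion protein of osteoclasts, was at 10 to 42 against 0 to 3. MMP9, a gelatinase, was at 1066 to 4608 against 322 to 724, and NFATC1, a transcription factor of osteoclasts, at 560 to 628 against 1082 to 3244, both short of 4-fold. CALCR, the calcitonin receptor, was at 0 in all 6 libraries. The part of these markers in the CTSK values was not tested.

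CTSS and CTSK are neighbours on chromosome 1, at 150730196 to 150765957 and 150796208 to 150808323, both on the minus strand and 30250 bases apart. Over the 11 replicated populations the means of the 2 genes had a Pearson correlation of -0.76 on the log2(value + 1) scale, given as a description of populations that share cultures. Of the other members CTSC (88293592 to 88337787, minus strand), CTSD (1752752 to 1764573, minus strand) and CTSW (65879809 to 65883741, plus strand) lie on chromosome 11, CTSA (45890144 to 45898820, plus strand) and CTSZ (58995185 to 59007247, minus strand) on chromosome 20, CTSH (78921058 to 78949574, minus strand) on chromosome 15 and CTSL (87725519 to 87731393, plus strand) on chromosome 9, all on GRCh38.

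The steps in time add few calls to those above. None of the 10 members was called between day 0 and day 2, when 7.88% of all genes were, and CTSB alone between day 2 and day 4 (9.5%). From day 4 to day 6, 1 member, CTSW, was called in CD43+ cells (14.5% of all genes) and none in CD43- cells (7.71%). In CD43+ cells CTSS and CTSW were called from day 6 to day 9 (7.53%), and CTSB, CTSH and CTSS from day 9 to day 12 (15%), all of them higher on the later day. In CD43- cells no member was called from day 6 to day 9 (1.75%) and CTSS alone from day 9 to day 12 (7.33%). From day 12 to day 16, with CTSS left out of the count because these samples chose it, none of the other 9 was called in CD43+ cells (9.05%) or in CD43- cells (10.4%). CTSS had log2 differences of 1.73 and -2.25 in these steps, given without a test. The change of the CD43 difference was called for 1 member, CTSH, from day 6 to day 9 (7.39% of all genes) and for 2, CTSB and CTSH, from day 9 to day 12 (9%). In CD43+ cells the median log2 difference of the members from day 9 to day 12 was 1.48, against -0.15 over all genes. CTSK and CTSW did not pass the adjusted p in this step.

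The other cathepsins of the table also fell into separate courses. CTSG, described above with the granule proteases, was called higher in CD43+ cells on days 6, 9 and 12. CTSE, an aspartic protease of the endosome known from red cell precursors, was seen mainly on day 9: 272, 46 and 223 in CD43+ against 6, 1 and 0 in CD43- cells (log2 difference of 5.88 ± 0.78, adjusted p = 2.36e-07). By day 12 it was back at 0, 2 and 2 against 0 in each CD43- library. The summed value of 7 erythroid markers was 142844 to 236569 in CD43+ cells on day 9 and 7394 to 17122 on day 12, and their part in the CTSE result was not tested. CTSO, a little-studied lysosomal cysteine protease, was at 25 to 32 against 64 to 92 on day 9 (-1.33 ± 0.26, adjusted p = 8.64e-05), and CTSF at 6 to 10 against 20 to 40 (-1.85 ± 0.45, adjusted p = 0.000714), both lower in CD43+ cells and short of 4-fold.

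Of the inhibitors of cathepsins, the 2 cystatins known from blood cells were called higher in CD43+ cells on day 12. CST7, cystatin F, which is targeted to the lysosome and holds back CTSC, was at 6 in each CD43+ library on day 6, 101, 101 and 86 on day 9, 2048, 3984 and 4077 on day 12 and 4844, 3540 and 4716 on day 16. In CD43- cells it was listed at 0 on days 6 and 9 and was 0, 0 and 51 on day 12 and 73, 389 and 170 on day 16. The summed neutrophil markers of the day 16 CD43- libraries were 7096, 21926 and 13760, in the same order, and their part in these values was not tested. CSTA, cystatin A, was listed at 0 on day 6, at 12, 24 and 22 on day 9 and at 1040, 1615 and 1550 on day 12 in CD43+ cells, against 0, 1 and 6 in CD43- cells on day 12. Both were called higher on day 12 (log2 differences of 9.75 ± 0.83 and 9.16 ± 0.48, adjusted p = 5.71e-11 and 3.08e-15). The size of both folds depends on the number added to low values.

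The widely expressed cystatins differed by less. CSTB, cystatin B, was at 2046 to 2535 in CD43+ and 1209 to 1384 in CD43- cells on day 12 (0.81 ± 0.13, adjusted p = 4.34e-06). CST3, the secreted cystatin C, was at 2884 to 5292 against 1696 to 2264 (0.84 ± 0.17, adjusted p = 8.12e-05). CST1, a secreted salivary cystatin, peaked on day 4 at 308, 573 and 358 and was at 12 or below in all CD43+ libraries. CST4 had its highest values on day 4 as well, at 35, 40 and 22, and CST6 stayed at 82 or below in all libraries. SERPINB3, a serpin that inhibits cathepsins, was at 10 or below throughout and was not tested. On day 12, 2 of 7 tested inhibitors were called higher and none lower, against 11.8% and 14.4% of all genes. Their median log2 difference was 0.81, against 0.22 over all genes.

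**Figure D4:**
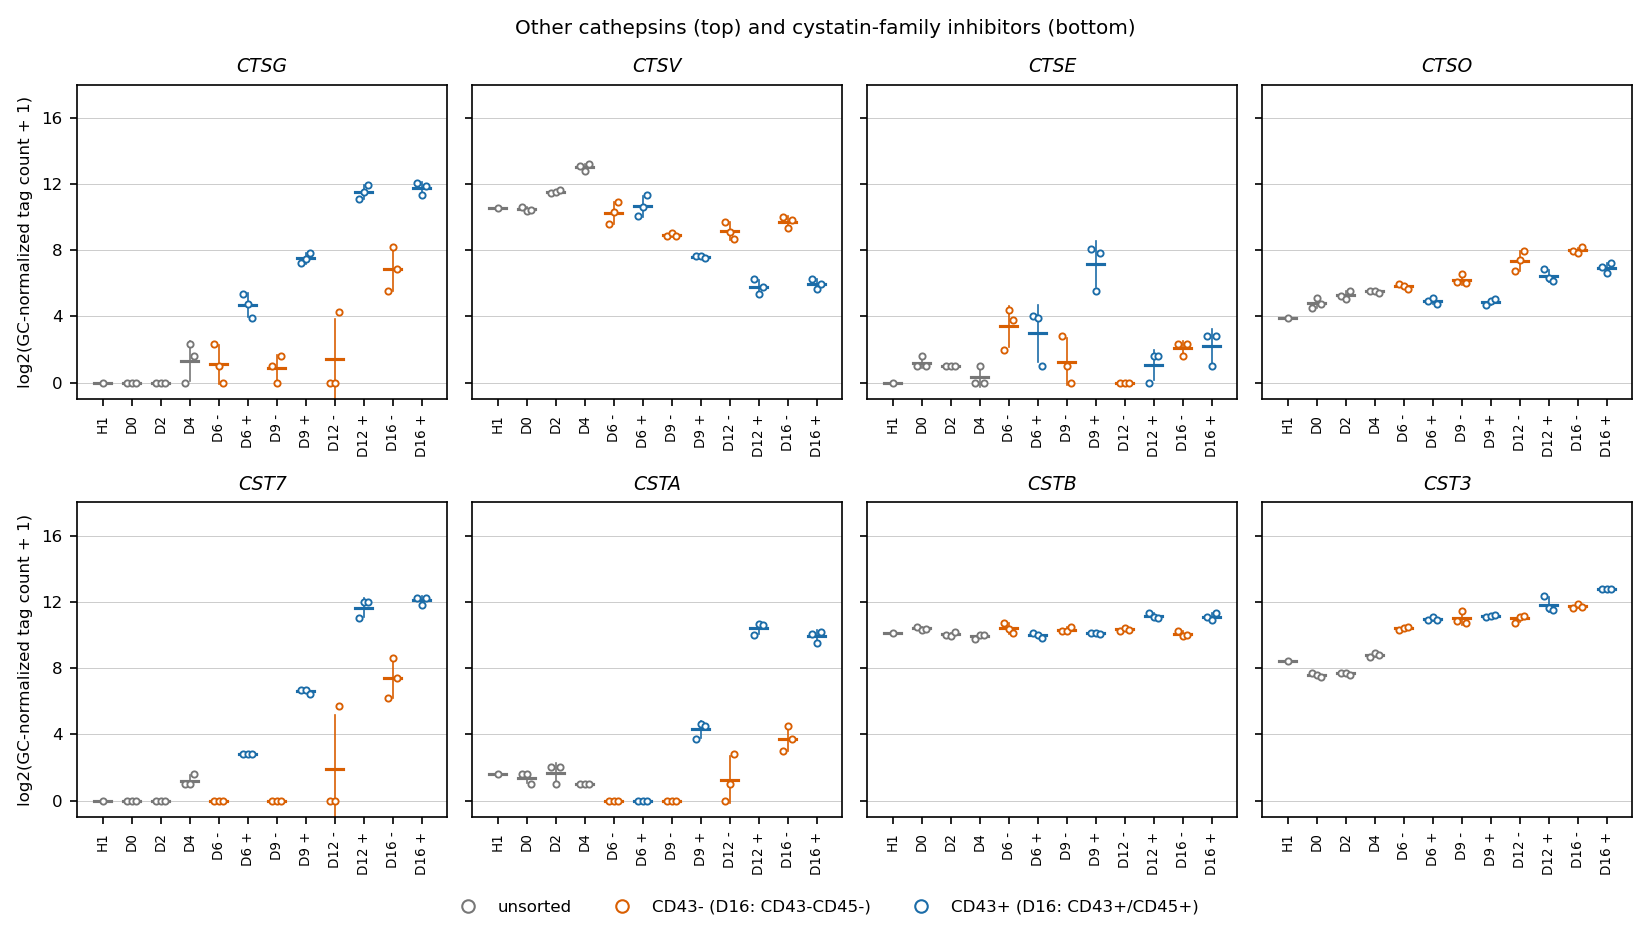
Values of 4 other cathepsins (top row) and 4 cystatins (bottom row) in the 34 libraries, drawn as in the plot of the 10 members: y axis log2(GC-normalized tag count + 1), circles for libraries, bars for means and SD. CTSG, CST7 and CSTA reach 1040 or more in all CD43+ libraries of day 12, CTSE is high in CD43+ cells on day 9, and CTSV falls from 7154 to 9233 on day 4 to 40 to 74 in CD43+ cells on day 12.

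The genes whose course was most like that of each member were read from Pearson correlations of log2(value + 1) over the means of the 11 replicated populations. For CTSS they were MS4A6A (r = 0.988), FOLR2 (0.988) and FPR1 (0.988), all 3 known from myeloid cells. For CTSW they were MGAM (0.990), WDFY4 (0.990) and SIGLEC7 (0.988). CTSD came with MAN2B1 (0.989), a lysosomal enzyme of the list above, CLEC17A (0.988) and CTB-61M7.2 (0.984), and CTSZ with TET2 (0.980), SLC22A4 (0.975) and RNPEPL1 (0.972).

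For the other members the nearest genes were RP11-25K21.6 and ANKRD22 for CTSA (0.978 and 0.973), DMXL2, LRCH4 and ASAP1 for CTSB (0.962 to 0.967), and PGD, SNX11 and CRLF3 for CTSC (0.961 to 0.963). They were GCA, SNX13 and C2 for CTSH (0.940 to 0.967), KIAA0408, TRPV4 and SHF for CTSK (0.921 to 0.931), and FAM160B1, BTN2A1 and ZSWIM8 for CTSL (0.942 to 0.981). Among the members themselves CTSD and CTSS had the highest correlation (0.911) and CTSK and CTSW the lowest (-0.784). With 11 means, of which 8 come from 4 pairs of sorted fractions, such values are given as a description.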

How the data were processed

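RNA-seq libraries of undifferentiated H1 cells (1), day 0, 2 and 4 cultures (3 each) and CD43- and CD43+ fractions of days 6, 9, 12 and 16 (3 each, described as independent biological replicates) were analysed. The authors deposited 1 table of GC-normalized tag counts per gene, treated here as a score: reads were assigned with Bowtie2 and RSEM and normalized by GC content with EDASeq, per the study's methods, and the submitters' processing notes also name bcl2fastq, STAR 2.7 and the build hg38. The deposited table also holds the GC percent of each gene, which was not used in a test. The same sorted values occur in every library and sum to 17856940, so depth is unknown, no counting error could be given and no count model was used. The sources used here do not say which library was sequenced at which of 2 centres, and p-values measure the spread between the replicate libraries of 1 line.

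The test was that of limma (version 3.58.1, under R 4.3.3), in 1 fit of 33 libraries and 11 populations with trended variances, on log2 values after 1 was added. Genes that reached 10 in 3 or more libraries were kept. Calls needed a Benjamini-Hochberg adjusted p under 0.05 and more than 4-fold. There were 15 tested comparisons; the CD43 contrast of day 16, and CTSS in the steps from day 12 to day 16, were not tested, and these steps share day 16 libraries with the contrast that chose CTSS. The members and all gene lists were chosen with earlier results of these data known. Named were all members, all other cathepsins and inhibitors, up to 4 genes of each other list with the largest day 12 difference, and the 3 genes most like each member, of which 1 is not reported here; up to 3 genes of each marker list were to be named by the same rule, which was followed for the monocyte and macrophage, neutrophil, NK and T cell and osteoclast lists only. MPO, MRC1, CSF1R, VSIG4, GNLY, CD3D, PRF1, NFATC1, CALCR and GZMA were named after their values were seen. GZMB, CST2, SERPINB13 and CD3E were not analysed here. Coding sequences were aligned with Biopython 1.88. The code was tested on simulated data.

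Replicate numbers are shared by the fractions of a day. Deviations of same-numbered libraries had correlations of 0.198, 0.109 and 0.199 on day 6, where the numbers were taken as pairs. The correlations were 0.017 to 0.078 on day 9, 0.039 to 0.108 on day 12 and -0.015 to 0.042 on day 16. All were weak, and the lowest of day 6 was near the highest of day 12. The sources used here do not say whether same-numbered fractions came from the same culture, so pairing is unknown on every day. Alternatives were the number added, the filter, quantile and median-of-ratios scaling, robust variances, a fold of 2, the populations fitted alone, a replicate block and each library left out.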

Additional observations from a re-analysis of the deposited data

Results flagged for a closer look

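There were 3 changes of the CD43 difference between days that were themselves tested and called. For CTSH the CD43 difference moved by -2.12 on the log2 scale from day 6 to day 9 and by 2.32 from day 9 to day 12. For CTSB it moved by 2.64 from day 9 to day 12. Each call was lost when 1 library was left out: without CD43- replicate 2 of day 9 the CTSH values were -1.76 and 1.95, and without CD43+ replicate 1 of day 12 the CTSB value was 1.84, all short of 4-fold with an adjusted p of 0.00564, 0.00134 and 6.03e-06 (limma, Benjamini-Hochberg). Without CD43- replicate 1 of day 12 the second CTSH value was 1.91, also short of 4-fold. Groups of 3 libraries were not searched for single outlying samples.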

How the results depend on the processing

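With no filter, a minimum value of 100, quantile normalization, robust variances or a replicate block over all populations, none of the 75 member results and none of the 15 counts of called members changed its direction or its call. With median-of-ratios scaling CTSK on day 6 became -0.013, CTSD on day 9 became -0.10 and the day 12 count of called members fell from 5 to 3. With 0.1 added to each value 1 member was called in CD43+ cells from day 6 to day 9, and with 10 added 0 were called on day 6, 0 in CD43+ cells from day 4 to day 6 and 2 for the change from day 6 to day 9. With a fold above 2 the counts were 4 on day 6, 4 on day 9, 3 from day 2 to day 4, 5 (day 9 against 6) and 8 (day 12 against 9) in CD43+ cells, 1 (day 9 against 6) and 1 (day 16 against 12) in CD43- cells, and 2 (day 6 to 9) and 6 (day 9 to 12) for the changes of the difference. With only the populations compared in the fit, 0 members were called in CD43- cells from day 9 to day 12 (CTSS, adjusted p = 0.14) and 3 for the change from day 6 to day 9. The cause of these shifts was not tested.

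Pairing by a replicate block in the day 6 fit left 1 member called and changed no call. Whether same-numbered libraries were pairs on days 9 and 12 is not known. There the replicate block within the populations compared left 2 called on day 9 and 3 on day 12. The calls lost on day 12 were those of CTSB (2.04, adjusted p = 0.0971) and CTSS (5.76, adjusted p = 0.0574).

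Leaving out 1 library at a time gave 3 to 5 called members on day 12, 0 to 1 in CD43+ cells from day 4 to day 6, 1 to 2 in CD43- cells from day 9 to day 12, 0 to 1 in CD43- cells from day 12 to day 16, 0 to 1 for the change from day 6 to day 9 and 1 to 4 for the change from day 9 to day 12. Values near 0 changed sign: CTSD on day 6 (-0.19 to 0.044), CTSK on day 6 (-0.025 to 0.26), CTSA on day 9 (-0.13 to 0.030) and CTSK on day 16 (-0.0018 to 0.24). With replicate 1 as the only day 12 CD43- library, chosen after seeing the data, CTSL on day 12 became 0.25, 7 members were called on day 12 (CTSD at 2.02 and CTSH at 2.19 joined), 0 in CD43- cells from day 9 to day 12, 1 from day 12 to day 16 and 4 for the change from day 9 to day 12. That lone library was assumed to vary like the other groups.

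Over all genes, with 10 added the calls on day 6 were 1458 in place of 2481 and on day 9 2731 in place of 4252. With a fold above 2 they were 5369, 8240 and 8985 on days 6, 9 and 12, the last in place of 5176. In the steps of CD43+ cells from day 9 to day 12 the 2968 calls became 1510 with 10 added, 1806 with a minimum value of 100 and 6371 with a fold above 2, and in CD43- cells the 1450 calls became 384, 652 and 3538, and 801 with only the populations compared. Values at or below about 10, as those of CTSS to day 6 and of CTSW before the cultures were sorted, order no populations.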
